A study of Mus musculus with 8 samples.

Results

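The report concerns 8 genes of mast cells in mouse fat: Cma1, Cpa3, Mcpt4, Tpsb2, Kit, Fcer1a, Ms4a2 and Hdc. They were taken by name, and all 8 of the 20743 genes named on the array were measured, by 12 probe sets (sets of short probes for 1 transcript). The samples were rsl males, wild type males, rsl females and wild type females, with 2 pools each of total RNA from abdominal white adipose tissue of adult mice on standard chow. The rsl mice were B10.D2.PL (rsl/rsl), which lack the Regulator of sex-limitation genes, and the wild type mice were B10.D2 (Rsl/Rsl). The rsl genotype came with the B10.D2.PL strain, so effects of the Rsl genes and of other differences between the strains cannot be told apart. Equal amounts of RNA from 5 mice per sex and genotype went into the pools, and the sources do not say whether both pools of a group hold the same mice. The p-values below measure only the spread between these pools, which may be technical.

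Mast cells are long-lived immune cells of connective tissue that lie along vessels and nerves, in fat as elsewhere. They depend on Kit, the receptor for stem cell factor, and release granules when antigen crosslinks IgE on the receptor that Fcer1a and Ms4a2 encode in part. The granules hold histamine, which the enzyme made by Hdc produces, and large stores of proteases bound to proteoglycan: the chymases encoded by Cma1 and Mcpt4, the carboxypeptidase encoded by Cpa3 and the tryptase encoded by Tpsb2.

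RefSeq's promoter windows (GRCm38.p6, 250 bases before to 50 after the gene's start) matched 7 of the 8 genes. Those of the 3 proteases whose strain means lay furthest apart are shown, 5′ to 3′ on the gene's strand, with each GATAA in capitals, or TTATC where the match is on the other strand. GATAA is the core letters of sites for GATA factors, a family that includes the mast cell factor Gata2. The windows lie at chr14:55944626-55944925 for Cma1, chr3:20242132-20242431 for Cpa3 and chr14:56062261-56062560 for Mcpt4, all on the minus strand.
Cma1: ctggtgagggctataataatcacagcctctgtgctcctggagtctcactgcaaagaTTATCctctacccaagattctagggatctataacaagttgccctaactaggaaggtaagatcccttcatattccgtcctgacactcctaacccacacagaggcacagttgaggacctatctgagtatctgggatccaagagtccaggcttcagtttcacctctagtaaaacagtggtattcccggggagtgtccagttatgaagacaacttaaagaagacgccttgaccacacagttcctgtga
Cpa3: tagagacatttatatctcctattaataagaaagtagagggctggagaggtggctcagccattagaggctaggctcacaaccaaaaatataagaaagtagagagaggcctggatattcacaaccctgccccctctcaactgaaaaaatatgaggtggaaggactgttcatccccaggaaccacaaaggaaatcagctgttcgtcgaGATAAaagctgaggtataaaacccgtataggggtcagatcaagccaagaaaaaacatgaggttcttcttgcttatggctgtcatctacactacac
Mcpt4: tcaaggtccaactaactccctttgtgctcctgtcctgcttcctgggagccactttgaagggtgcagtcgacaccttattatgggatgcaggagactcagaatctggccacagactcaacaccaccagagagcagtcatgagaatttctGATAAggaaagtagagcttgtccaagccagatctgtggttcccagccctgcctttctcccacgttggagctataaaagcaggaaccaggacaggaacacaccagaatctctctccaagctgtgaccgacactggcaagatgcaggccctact
Counted from the gene's start, the match lay at -194 in Cma1, -45 in Cpa3 and -102 in Mcpt4. Fcer1a held 1 match and Ms4a2 held 3, while the windows of Kit and Hdc held none. On either strand, GATAA was present in 5 of the 7 windows and in 25.8% of the 27025 promoter windows of the table. CACATG, an E-box of the kind that Mitf binds, was present on either strand in 1 of the 7, that of Fcer1a, and in 14.1% of all windows. CACGTG, its palindromic form, was in 0 of the 7 and in 7.24% of all. These matches describe letters in the windows and are no measure of binding.

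Array medians lay between 4.54 and 4.58 (log2), and 62.8% to 71.0% of probe sets exceeded the array's background, which lay between 3.73 and 4.01. One label field names liver RNA, while the tissue field and the design name adipose tissue; all 11 measured adipocyte genes were above background on every array, with array means from 11.15 to 11.90. The probe set of Rsl1, one of the Rsl genes, read 3.98 and 3.83 in rsl males against 4.62 and 5.02 in wild type males, and 3.57 and 3.69 in rsl females against 5.09 and 5.25 in wild type females. Every rsl pool thus lay below every wild type pool. Both rsl male pools were rich in epididymis genes, with a mean over 9 genes of 12.28 and 11.80, against 7.46 and 5.46 in wild type males, and 3.90 to 4.15 in the female pools. The 3′ minus 5′ signal of Gapdh, a measure of RNA integrity, was 0.79 and 1.03 in rsl males against 0.68 and 0.71 in wild type males, and 0.66 and 0.50 in rsl females against 0.72 and 0.59 in wild type females. The same measure for actin was 1.156 and 1.199 in rsl males against 1.06 and 0.95 in wild type males, and 1.09 and 0.95 in rsl females against 0.88 and 0.89 in wild type females. For actin both rsl pools thus lay above both wild type pools in each sex, and the part of RNA integrity in the strain differences was not tested.

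Of the 8 genes, 6 were above background on all 8 arrays: the 4 proteases, Kit and Hdc. Fcer1a and Ms4a2 were above background on none. The detected genes were thus granule genes, Kit and Hdc, while the chains that define the IgE receptor were not detected. On each array 62.8% to 71.0% of all probe sets were above background, so this count is by itself no sign of mast cells. Of 3 measured basophil genes, 1 was above background on all arrays, Itga2b, an integrin chain best known from platelets; the granule protease gene Mcpt8 and the receptor gene Cd200r3 were above it on 0 arrays. Of 6 eosinophil genes, 1 was above background on all arrays, Ear2, a ribonuclease that macrophages also make, and the receptor genes Siglecf and Ccr3 were above it on 0.

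Strain was the first comparison, and it asks which mast cell genes differed when the Rsl genes were absent. Averaged over sex, Cma1 and Cpa3 were lower in rsl fat (limma adjusted p under 0.05). Fcer1a passed too, which makes 3 of the 8 genes lower and 0 higher, but its readings lay below background on every array and are not read as expression. Over all probe sets, 1.19% passed in this contrast. The median log2 difference of the 8 genes, the 2 undetected ones included, was -0.40, against 0.01 over all probe sets. An unadjusted p under 0.05 was found for 6 of the 8, 2 of them the undetected Fcer1a (lower) and Ms4a2 (higher), and for 21.2% of all probe sets. In bulk tissue, fewer mast cells and less RNA per mast cell cannot be told apart.

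**Figure D1:**
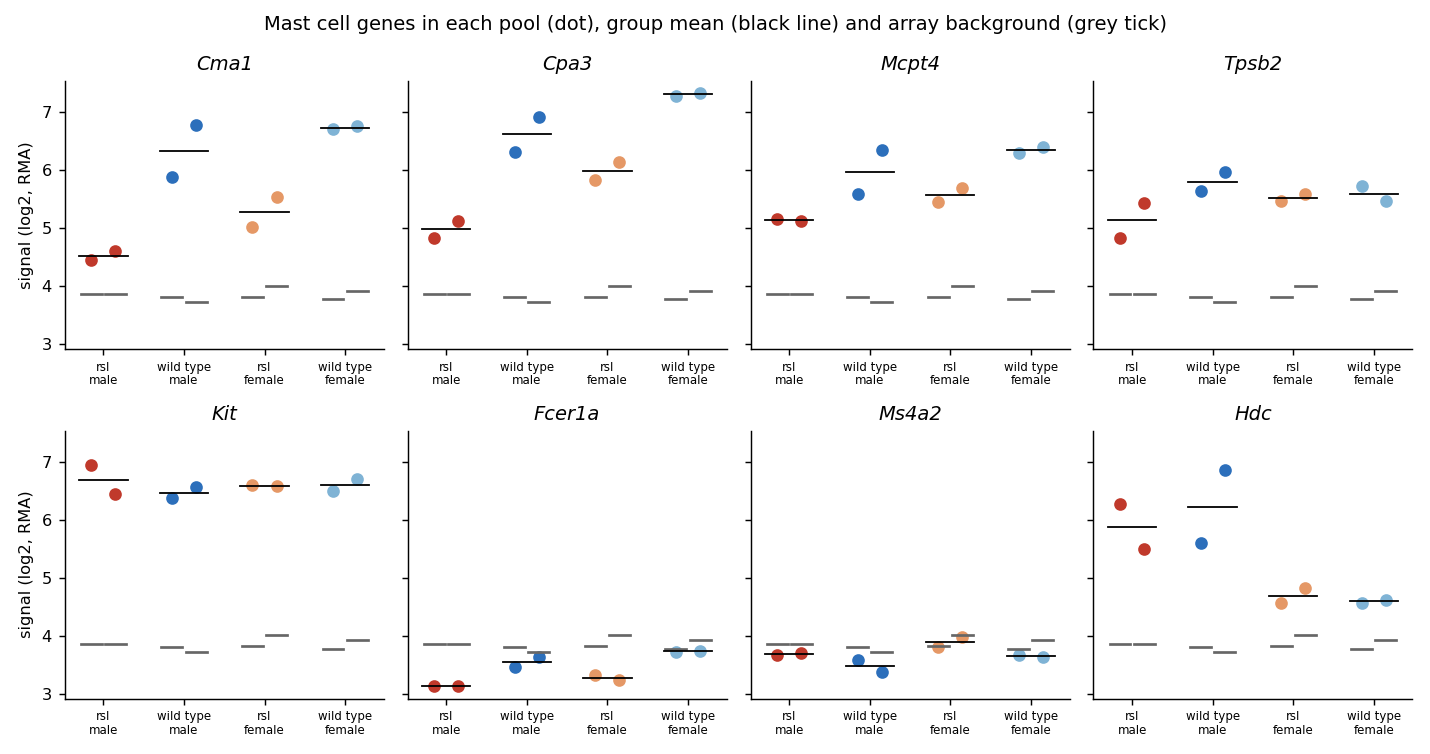
Signal (log2, RMA) of the probe set that stands for each of the 8 genes. Each dot is 1 pool, black lines are means of the 2 pools of a group and grey ticks are the array's background; Cma1 and Cpa3 are lower in all 4 rsl pools than in any wild type pool, while Fcer1a and Ms4a2 lie below the ticks.

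Cma1, which encodes a protease of connective tissue mast cell granules, read 4.45 and 4.60 in rsl males against 5.88 and 6.77 in wild type males, and 5.02 and 5.54 in rsl females against 6.71 and 6.75 in wild type females. All 4 rsl pools lay below all 4 wild type pools, and the rsl males were the lowest of all. The means were 4.90 ± 0.49 in rsl and 6.53 ± 0.43 in wild type (SD, n = 4 each). The difference was -1.63 ± 0.20 (log2 ± SE, 3.09-fold lower in rsl, limma adjusted p = 0.0237).

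Cpa3 encodes carboxypeptidase A3, which in mice is stored in the same granules as the Cma1 protease. It read 4.84 and 5.12 in rsl males against 6.31 and 6.91 in wild type males, and 5.83 and 6.14 in rsl females against 7.28 and 7.32 in wild type females. The strains again did not overlap, and within each strain both male pools lay below both female pools. The means were 5.48 ± 0.61 in rsl and 6.96 ± 0.47 in wild type (SD, n = 4 each), a difference of -1.47 ± 0.15 (2.78-fold lower in rsl, limma adjusted p = 0.0117).

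Both calls were lost when any 1 female pool was left out. Without wild type female 1, wild type female 2, rsl female 1 or rsl female 2, the adjusted p for Cma1 was 0.143, 0.167, 0.133 and 0.111, and that for Cpa3 was 0.104, 0.116, 0.0886 and 0.0689. Leaving out any 1 male pool kept both calls. The log2 difference stayed between -1.85 and -1.40 for Cma1 and between -1.62 and -1.33 for Cpa3 over these 8 omissions.

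Mcpt4, the other chymase and in mice the nearest functional counterpart of the human enzyme, read 5.15 and 5.12 in rsl males against 5.58 and 6.35 in wild type males, and 5.44 and 5.69 in rsl females against 6.30 and 6.39 in wild type females. Within each sex the rsl pools were lower, but the upper rsl female pool exceeded the lower wild type male pool. The difference was -0.80 ± 0.16 and did not pass (limma adjusted p = 0.0683).

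Tpsb2, the tryptase gene, read 4.83 and 5.44 in rsl males against 5.64 and 5.96 in wild type males, and 5.47 and 5.58 in rsl females against 5.72 and 5.46 in wild type females. The male strains were apart and the female strains overlapped. The average difference of -0.37 ± 0.15 did not pass (limma adjusted p = 0.218). A second Tpsb2 probe set stayed below background on every array, at 3.14 to 3.41. Tryptase genes are close relatives of each other, and cross-hybridisation between them was not tested.

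Kit, the receptor that mast cells need for survival, read 6.94 and 6.44 in rsl males against 6.37 and 6.57 in wild type males, and 6.59 and 6.58 in rsl females against 6.49 and 6.71 in wild type females. The strains overlapped in both sexes. The difference was 0.10 ± 0.12 (limma adjusted p = 0.648), so Kit was not seen to move with Cma1 and Cpa3. A second Kit probe set lay near background, at 3.67 to 3.93. Kit is also made by other cells, melanocytes among them. Of 6 melanocyte genes, 4 were above background on all arrays, with list means from 4.31 to 4.60, while Tyr was above it on 1 array and Mlana on 0. On each array 62.8% to 71.0% of all probe sets were above background, so this count is no sign of melanocytes. Their part in the Kit signal was not tested.

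Fcer1a, which encodes the IgE-binding chain of the receptor, read 3.13 and 3.13 in rsl males against 3.47 and 3.64 in wild type males, and 3.33 and 3.23 in rsl females against 3.73 and 3.75 in wild type females. Every pool was below the background of its array, although the strains did not overlap. The difference of -0.44 ± 0.06 passed the test (limma adjusted p = 0.0291), and no fold is given since both strains were below background. Leaving out any of the 4 female pools or wild type male 2 ended the call (adjusted p from 0.0721 without wild type male 2 to 0.183 without wild type female 2).

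Ms4a2, the receptor's signal-amplifying beta chain, read 3.67 and 3.70 in rsl males against 3.59 and 3.38 in wild type males, and 3.81 and 3.99 in rsl females against 3.67 and 3.64 in wild type females. These values too were below background on every array, and its difference of 0.22 ± 0.07 did not pass (limma adjusted p = 0.147). The second Ms4a2 probe set spanned 3.21 to 3.42.

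Hdc, histidine decarboxylase, read 6.27 and 5.49 in rsl males against 5.60 and 6.85 in wild type males, and 4.57 and 4.82 in rsl females against 4.57 and 4.62 in wild type females. The strains overlapped in both sexes, while all 4 male pools lay above all 4 female pools. The strain difference was -0.12 ± 0.29 (limma adjusted p = 0.832).

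Within males, 2 of the 8 genes passed, Cma1 and Cpa3, both lower in rsl, where 1.32% of all probe sets passed. Cma1 averaged 4.53 ± 0.11 in rsl males and 6.32 ± 0.63 in wild type males (SD, n = 2 each), a difference of -1.80 ± 0.29 (limma adjusted p = 0.0435). Cpa3 averaged 4.98 ± 0.20 in rsl males and 6.61 ± 0.42 in wild type males, a difference of -1.63 ± 0.21 (limma adjusted p = 0.0263). Mcpt4 differed by -0.83 (adjusted p = 0.116) and Tpsb2 by -0.67 (adjusted p = 0.147). Both calls were lost without wild type male 2 (adjusted p = 0.0935 for Cma1 and 0.0627 for Cpa3) and without rsl male 1 (0.0973 and 0.0509). Any 1 female pool left out also ended them, with adjusted p from 0.113 to 0.13 for Cma1 and from 0.0943 to 0.105 for Cpa3. A fit on the male arrays alone called neither (adjusted p = 0.379 for both).

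Within females, 0 of the 8 genes passed limma's test in a contrast where 0.209% of all probe sets did, and an unadjusted p under 0.05 was found for 5 of the 8, the undetected Fcer1a and Ms4a2 among them, and for 11% of all probe sets. Cma1 averaged 5.28 ± 0.37 in rsl females and 6.73 ± 0.03 in wild type females, a difference of -1.46 ± 0.29 (SE, n = 2 each, limma adjusted p = 0.159). Cpa3 averaged 5.99 ± 0.22 in rsl females and 7.30 ± 0.03 in wild type females, a difference of -1.32 ± 0.21 (limma adjusted p = 0.0917). Mcpt4 differed by -0.78 (adjusted p = 0.301) and Tpsb2 by -0.07 (adjusted p = 0.941). In a fit on the female arrays alone, 4 of the 8 passed, Cma1 (adjusted p = 0.00396), Cpa3 (0.00154), Mcpt4 (0.00743) and Fcer1a, all lower in rsl; that fit called 2009 of all probe sets, against 94 in the joint fit.

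**Figure D2:**
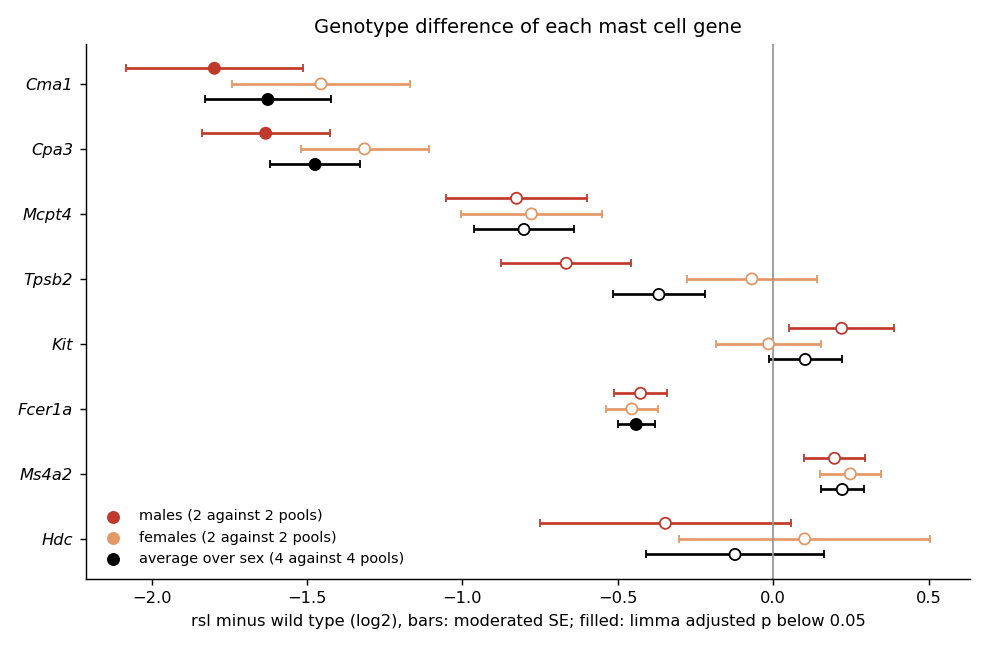
Log2 difference of rsl minus wild type for each gene, shown for males, for females and as their average, with moderated SE as bars. Filled points passed the limma test: Cma1 and Cpa3 in males, and Cma1, Cpa3 and Fcer1a in the average; Kit lies between -0.01 and 0.22.

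The strain difference was then compared between the sexes. For 0 of the 8 genes did the interaction pass limma's test or have an unadjusted p under 0.05, in a contrast where 0.0577% of all probe sets passed and 10.8% had such a p. The difference in males minus that in females was -0.34 ± 0.40 for Cma1 (adjusted p = 0.816) and -0.32 ± 0.29 for Cpa3 (adjusted p = 0.752). It was -0.05 ± 0.32 for Mcpt4 (adjusted p = 0.977) and -0.60 ± 0.30 for Tpsb2 (adjusted p = 0.528). The errors leave room for sizeable differences between the sexes in either direction.

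Males were then set against females within each strain, and Hdc and Cpa3 stood at opposite ends of the 8 genes. In rsl mice, 1 of the 8 passed, about the share of all probe sets that did (12.3%), so the count is not read as a trait of the 8 genes. The gene was Cpa3, lower in males by -1.01 ± 0.21 (2.01-fold, limma adjusted p = 0.0252). That call was lost without rsl male 1 (adjusted p = 0.0883), rsl female 1 (0.0868), rsl female 2 (0.161) or either wild type female pool (0.0625 each). In wild type mice 0 of the 8 passed limma's test, against 3.83% of all probe sets, and 2 had an unadjusted p under 0.05, against 17.4% of all. Cpa3 differed there by -0.69 ± 0.21 (adjusted p = 0.14). The female pools were richer in skeletal muscle genes, with means over 9 genes of 5.59 to 7.79 against 4.37 to 4.60 in male pools. Mesothelium genes too were higher in females, with means over 6 genes of 8.11 to 8.58 against 7.22 to 7.43 in males. The part of these tissue differences in the sex comparisons was not tested.

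Hdc was the gene whose male pools lay highest over its female pools. Male minus female was 1.18 ± 0.40 in rsl (limma adjusted p = 0.108) and 1.63 ± 0.40 in wild type (limma adjusted p = 0.0848). The second Hdc probe set read 5.22 and 4.70 in rsl males against 4.82 and 5.39 in wild type males, and 4.22 and 4.14 in rsl females against 4.06 and 4.14 in wild type females. It too was higher in every male pool, by 0.78 in rsl (adjusted p = 0.0651) and 1.01 in wild type (adjusted p = 0.0583). The male pools also carried RNA of testis genes, with list means over 10 genes of 6.08 and 4.64 in rsl males, 6.42 and 6.60 in wild type males and 3.69 to 3.73 in females. In both strains the male pool with more Hdc was the richer in testis genes; it was the richer in epididymis genes in rsl and the poorer in wild type. The part of reproductive tract RNA in the Hdc signal was not tested.

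In signal, the strain differences of the 4 proteases were unequal. Within a pool, the signal of one protease minus that of another cancels a shift that both signals share. The comparison thus asks whether the signals kept their proportions. Whether the probe sets respond alike to the same change in RNA was not tested, so proportions of RNA are not read. Cma1 minus Mcpt4 was -0.70 and -0.52 in rsl males against 0.30 and 0.42 in wild type males, and -0.43 and -0.16 in rsl females against 0.41 and 0.36 in wild type females. Every rsl pool lay below every wild type pool. The sign of such a value has no meaning, since the 2 probe sets share no zero, and only its change between strains is read. The strain difference was -0.83 (exact permutation test, two-sided, 4 against 4 pools, p = 0.0286, adjusted over 6 pairs 0.0429).

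The same held for Cma1 minus Tpsb2 (-1.26), Cpa3 minus Mcpt4 (-0.67) and Cpa3 minus Tpsb2 (-1.11), each with p = 0.0286 and adjusted p = 0.0429 in the exact permutation test, the smallest p that 4 against 4 can give. Cma1 minus Cpa3 averaged -0.58 ± 0.18 in rsl and -0.43 ± 0.20 in wild type (SD, n = 4 each), a difference of -0.15 (exact permutation p = 0.4, adjusted 0.4). Mcpt4 minus Tpsb2 differed by -0.43 (exact permutation p = 0.1429, adjusted 0.1714). So the signals of Cma1 and Cpa3 were lower relative to those of Mcpt4 and Tpsb2 in rsl pools. Within neither of those pairs was a difference detected. The permutation tests shuffled pools across both sexes and took no account of sex. Cpa3 minus Tpsb2, for example, was 0.67 and 0.95 in wild type males against 1.56 and 1.86 in wild type females. How the permutation p-values depend on sex and on single pools was not tested. Cma1 in rsl males, at 4.45 and 4.60, came nearest of the 4 to background. Mcpt4 and Tpsb2 were dim as well, at 5.12 to 6.39 and 4.83 to 5.96 over all pools. The part of dim signals in the unequal differences was not tested.

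**Figure D3:**
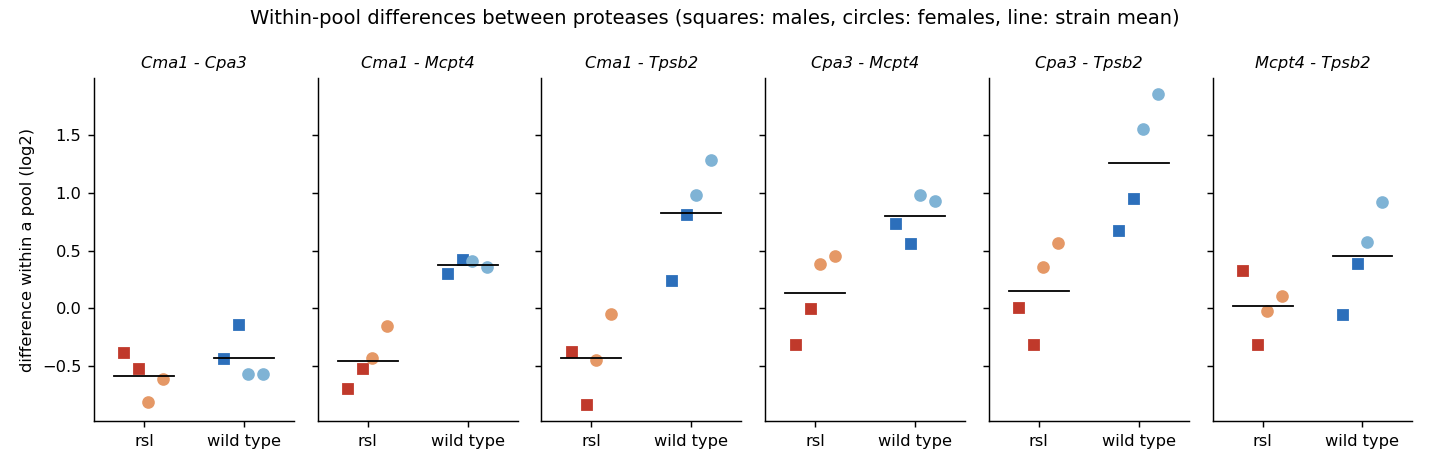
Difference in log2 signal between 2 proteases within each pool, for all 6 pairs, with rsl left and wild type right in each panel. Squares are male pools, circles female pools and lines the strain means over 4 pools; the strains do not overlap in the 4 pairs that set Cma1 or Cpa3 against Mcpt4 or Tpsb2.

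Other genes of mast cells were taken from lists by role, and the unadjusted counts given for them stand beside the 21.2% of all probe sets above. Of 11 further granule genes, 8 were measured, 3 of them above background on all arrays, and 0 of 8 passed limma's strain tests (0 with an unadjusted p under 0.05 in the average). Srgn, the core protein of the proteoglycan that holds the proteases, averaged over 10 in every pool and differed by -0.17 ± 0.12 (adjusted p = 0.45). Ndst2, the enzyme that sulphates mast cell heparin, differed by -0.03 ± 0.05 (adjusted p = 0.783). Gzmb, a neighbour of Cma1 and Mcpt4 in the chymase locus, read between 4.05 and 4.43 and differed by -0.03 ± 0.06 (adjusted p = 0.766). Srgn, Ndst2 and Gzmb are all made by other cells as well. Ctsg, of the same locus, was above background on 0 arrays, as was Mcpt1, a chymase of mucosal mast cells.

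Of 11 genes for lipid and amine mediators, 0 passed in the strain average (4 with an unadjusted p under 0.05) and 1 was lower in rsl males. Alox5ap, which presents arachidonic acid to 5-lipoxygenase for leukotriene synthesis, read 7.61 and 7.93 in rsl males and 8.58 and 9.002 in wild type males. The male difference was -1.02 ± 0.16 (limma adjusted p = 0.0425), and the average of -0.67 ± 0.11 did not pass (adjusted p = 0.0513). Ltc4s, leukotriene C4 synthase, differed by -0.53 in the average (adjusted p = 0.0991) and Ptgs2, a cyclooxygenase, by -0.31 ± 0.11 (adjusted p = 0.175). Cyp11a1, the enzyme that starts steroid synthesis, differed the other way, by 0.33 ± 0.08 (adjusted p = 0.0932), and was above background in 3 rsl pools and 0 wild type pools.

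Of 10 measured receptor genes, 1 was lower in the strain average, Ptger3, a prostaglandin E receptor that adipocytes also make in quantity. It read 6.86 and 7.29 in rsl males against 8.90 and 8.49 in wild type males, and 10.27 and 10.26 in rsl females against 10.55 and 10.64 in wild type females. On this probe set the strains were apart within each sex and the sexes far apart within each strain. The strain difference was -0.97 ± 0.12 in the average (adjusted p = 0.0246) and -1.62 ± 0.17 in males (adjusted p = 0.0163). The other Ptger3 probe set was dim, at 4.36 and 3.85 in rsl males against 4.29 and 4.33 in wild type males. It read 4.48 and 4.56 in rsl females against 4.84 and 4.81 in wild type females. There the male strains overlapped and the sexes lay closer together. Fcer1g, the signalling chain that the IgE receptor shares with other receptors of myeloid cells, differed by -0.43 ± 0.14 (adjusted p = 0.148), and Il1rl1, the IL-33 receptor, by -0.37 ± 0.15 (adjusted p = 0.219). Mrgprb1 was above background on 0 arrays.

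Of 8 transcription factor genes, 0 passed in the average (5 with an unadjusted p under 0.05), and Ikzf1, a factor of many leukocytes, was lower in rsl males. It read 5.83 and 5.89 in rsl males and 6.54 and 6.57 in wild type males, a difference of -0.70 ± 0.10 (limma adjusted p = 0.0328). Its other probe set read 4.47 and 4.25 in rsl males against 4.37 and 4.39 in wild type males, so the strains overlapped there. The next smallest p-values were those of Tal1 (-0.27 ± 0.07, adjusted p = 0.106), Gata1, which was above background on 0 arrays, and Lyl1 (-0.40 ± 0.14, adjusted p = 0.168). Gata2, which mast cells require, differed by 0.09 ± 0.07 in the average (adjusted p = 0.485) and Mitf by -0.28 ± 0.19 (adjusted p = 0.43).

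Of 18 genes of signalling and degranulation, 0 passed in the average (9 with an unadjusted p under 0.05), and 1 was higher in rsl males. Inpp5d, the lipid phosphatase SHIP-1 that restrains mast cell degranulation, read 8.86 and 8.09 in rsl males against 6.81 and 7.05 in wild type males, and 7.05 and 7.15 in rsl females against 7.21 and 7.22 in wild type females. Only the rsl male pools stood out, and they did so upwards, by 1.54 ± 0.23 over wild type males (2.91-fold, limma adjusted p = 0.0362). Its other probe set differed by 0.72 ± 0.21 in males (adjusted p = 0.133). In the average, Lcp2, an adaptor of receptor signalling, differed by -0.50 ± 0.10 (adjusted p = 0.0678), the kinase gene Fyn by -0.39 ± 0.08 (adjusted p = 0.0687) and Unc13d, a faint gene of granule release, by 0.29 ± 0.05 (adjusted p = 0.0605). Epididymis genes were also highest in the rsl male pools (means above), and their part in the Inpp5d signal was not tested.

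Of 10 growth factors and signals for mast cells, 1 was lower in the strain average and 2 in males. Kitl, stem cell factor itself, read 8.67 and 9.06 in rsl males against 9.62 and 9.94 in wild type males, and 9.84 and 9.93 in rsl females against 9.88 and 9.84 in wild type females. Both rsl male pools were below all others, and the female strains overlapped. The male difference was -0.92 ± 0.15 (1.89-fold lower, limma adjusted p = 0.0471). Of the other 3 Kitl probe sets, 1 passed in males as well (-0.82 ± 0.08, adjusted p = 0.0143), while the average over sex did not (-0.45 ± 0.11, adjusted p = 0.0973).

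Tslp, an epithelial cytokine that acts on mast cells, was faint: 3.61 and 3.52 in rsl males against 4.30 and 4.33 in wild type males, and 3.996 and 4.30 in rsl females against 4.69 and 4.57 in wild type females. Both rsl male readings were below background. Its average difference was -0.61 ± 0.08 (adjusted p = 0.0251), and in males it was at least 1.37-fold lower (limma adjusted p = 0.037). Il33 differed by 0.18 ± 0.10 (adjusted p = 0.331). Hnmt, which breaks histamine down, differed by -0.15 ± 0.12 between strains (adjusted p = 0.493), and 0 of the 4 genes of histamine breakdown and receptors passed a strain test (0 with an unadjusted p under 0.05 in the average).

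All of these strain calls of representative probe sets outside the 8 genes were lost when any female array was left out, with adjusted p from 0.0533 to 0.169 in the average (Ptger3 and Tslp) and from 0.0682 to 0.136 in males (Alox5ap, Ptger3, Ikzf1, Inpp5d, Kitl and Tslp). In males, calls were also lost without wild type male 2 for Alox5ap (adjusted p = 0.138), Ikzf1 (0.146), Inpp5d (0.114), Kitl (0.199) and Tslp (0.163). Without rsl male 1 they were lost for Alox5ap (0.0901), Ikzf1 (0.0715), Kitl (0.0863) and Tslp (0.0604), and without wild type male 1 for Inpp5d (0.0562) and Tslp (0.0525). The average for Tslp was also lost without wild type male 2 (0.074).

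Between the sexes within rsl, where 12.3% of all probe sets passed, 13 genes of these lists passed limma's test. In the order above, the lists held 8, 11, 10, 8, 18, 10 and 4 measured genes. Higher in males were Inpp5d (1.37, adjusted p = 0.0137), Syk, the kinase that carries the IgE receptor's signal (0.96, 0.0144), Alox5, the 5-lipoxygenase (0.65, 0.0347), Vamp8, a vesicle fusion protein (0.49, 0.0446), and Plcg1, a phospholipase (0.42, 0.0363). Lower in males were Ptger3 (-3.19, 0.000387), Kitl (-1.02, 0.0101), Hnmt (-0.84, 0.0206), Tslp (-0.58, 0.0206), Fyn (-0.54, 0.0236), Stat5a, which signals below Kit (-0.51, 0.0224), the ATP receptor gene P2rx1 (-0.48, 0.0303) and the chemokine gene Cxcl12 (-0.42, 0.0499). Ptger3 was the one of them that also passed in wild type (-1.90, adjusted p = 0.00346), and for 0 of the 13 did the interaction pass (lowest adjusted p = 0.169, for Ptger3 and Inpp5d). Without rsl female 2, 1 of the 13 passed (Ptger3), and without rsl female 1, 2 did (Ptger3 and Tslp). Without either wild type female pool 4 passed (Ptger3, Syk, Inpp5d and Kitl), without rsl male 1 there were 6, and without rsl male 2 all but Cxcl12. The part of tissue differences between male and female pools (means above) in these calls was not tested.

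Markers of other cells were read beside the proteases. The 10 pan-leukocyte genes had array means of 7.26 and 7.68 in rsl males against 7.93 and 8.26 in wild type males, and 7.67 and 7.76 in rsl females against 7.97 and 8.08 in wild type females. All 4 rsl pools lay below all 4 wild type pools. The median strain difference was -0.40 for the 8 mast cell genes and -0.48 for these 10, of which 0 passed limma's test (9 with an unadjusted p under 0.05). The -0.40 includes the undetected Fcer1a and Ms4a2 and is set by Fcer1a (-0.44) and Tpsb2 (-0.37). The detected mast cell genes ran from -1.63 (Cma1) to 0.10 (Kit), so these medians do not rank the lists. The 10 pan-leukocyte genes ran from -0.997 for Cd48 to 0.08 for Ptpn6. The macrophage list had a median of -0.32 and 2 of 18 genes lower, Ccr2 (-0.90 ± 0.11, adjusted p = 0.0245), a chemokine receptor of monocytes, and Lyve1 (-0.79 ± 0.13, adjusted p = 0.0481), a hyaluronan receptor of vessel-associated macrophages and lymphatics. Both calls ended without wild type male 2 (0.0565 and 0.114) or any female pool (0.134 to 0.239). In the strain average, 1.19% of all probe sets passed.

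Endothelial genes had a median of -0.57, with 0 of 9 passing (5 with an unadjusted p under 0.05), and adipocyte genes one of -0.08, with 0 of 11 passing limma's test (1 with an unadjusted p under 0.05). These medians do not show that rsl male 1 was the lowest pool in both lists. Its adipocyte mean was 11.15, against 11.70 to 11.90 in the other pools, and its endothelial mean 6.84, against 7.58 to 8.16. The part of the make-up of rsl male 1 in the strain calls was not tested. When each array was scaled so that the pan-leukocyte mean was equal on all arrays, Cma1 differed by -1.16 (limma adjusted p = 3.21e-07) and Cpa3 by -1.01 (4.9e-06). Most probe sets of the array passed in the strain average under that scaling, nearly all of them higher (counts below). These p-values are thus not read as stronger evidence than the unscaled ones. That scaling moved the median of all probe sets by 0.47, so that Mcpt4 stood at -0.33, Fcer1a at 0.03, Kit at 0.57 (adjusted p = 0.0055) and Ms4a2 at 0.69 (adjusted p = 0.00174). The shift itself makes up most of the last 2 values. Whether mast cells or their granule genes fell beyond other leukocytes was not tested.

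Of 10 genes of T and NK cells, 1 was higher in the strain average, Klrb1c, a receptor of NK cells. It read 7.78 and 6.81 in rsl males against 4.23 and 4.21 in wild type males, and 4.01 and 3.91 in rsl females against 4.02 and 3.87 in wild type females. Its difference was 1.55 ± 0.19 in the average (limma adjusted p = 0.0237) and 3.08 ± 0.27 in males (8.44-fold higher in rsl, adjusted p = 0.00913). Ncr1, of the same list, was above background on 0 arrays. Epididymis genes were also highest in the rsl male pools (means above), and their part in the Klrb1c signal was not tested. The mean of this list, Klrb1c included, was 5.07 and 4.94 in rsl males against 4.62 and 4.54 in wild type males. It was 4.54 and 4.59 in rsl females against 4.53 and 4.57 in wild type females. Most of the male difference in this mean came from Klrb1c and Gata3 (1.10 in males, limma adjusted p = 0.169). The other genes of the list ran from -0.25 (Cd2) to 0.25 (Cd8a) in males, so the mean is no sign of a shift of the whole list. Of 5 neutrophil genes, S100a8, a calcium-binding protein of neutrophil cytosol, was lower in the average (-0.76 ± 0.11, adjusted p = 0.0374) and in males (-1.73 ± 0.16, adjusted p = 0.0109). Camp, an antimicrobial peptide gene, was lower in males (-0.72 ± 0.08, adjusted p = 0.0155), and the list's median in the average was 0.17. In the average, S100a9 (0.38, limma adjusted p = 0.0857) and Elane (0.17, adjusted p = 0.223) differed the other way without passing. Mpo was above background on 0 arrays, so the list did not move as a whole. Leaving out any female pool ended the average calls of Klrb1c and S100a8 (adjusted p from 0.134 to 0.197), as did leaving out wild type male 2 for Klrb1c (0.0656). In males Klrb1c and Camp lost theirs without any female pool (0.0569 to 0.0697), Camp without wild type male 2 (0.0843), and S100a8 without either rsl female pool (0.0608 each).

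The remaining lists are given by their counts and medians in the strain average. Of 9 epididymis genes 5 were higher in rsl, Lcn8, Lcn9, Cst8, Cst11 and Rnase10 (median 3.56). None passed limma's test of 7 B cell genes (median -0.03, 1 with an unadjusted p under 0.05), 6 mesothelium genes (-0.43, 4), 9 fibroblast and matrix genes (-0.22, 4), 9 mammary epithelium genes (0.45, 2), 9 skeletal muscle genes (-0.56, 1) and 10 testis genes (-0.55, 3). In males 3 of the 10 testis genes were lower in rsl, Ldhc (-2.15, adjusted p = 0.0484), Akap3 (-2.56, 0.0342) and Spata4 (-2.08, 0.0407). The part of these other cells in the mast cell values was not tested.

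**Figure D4:**
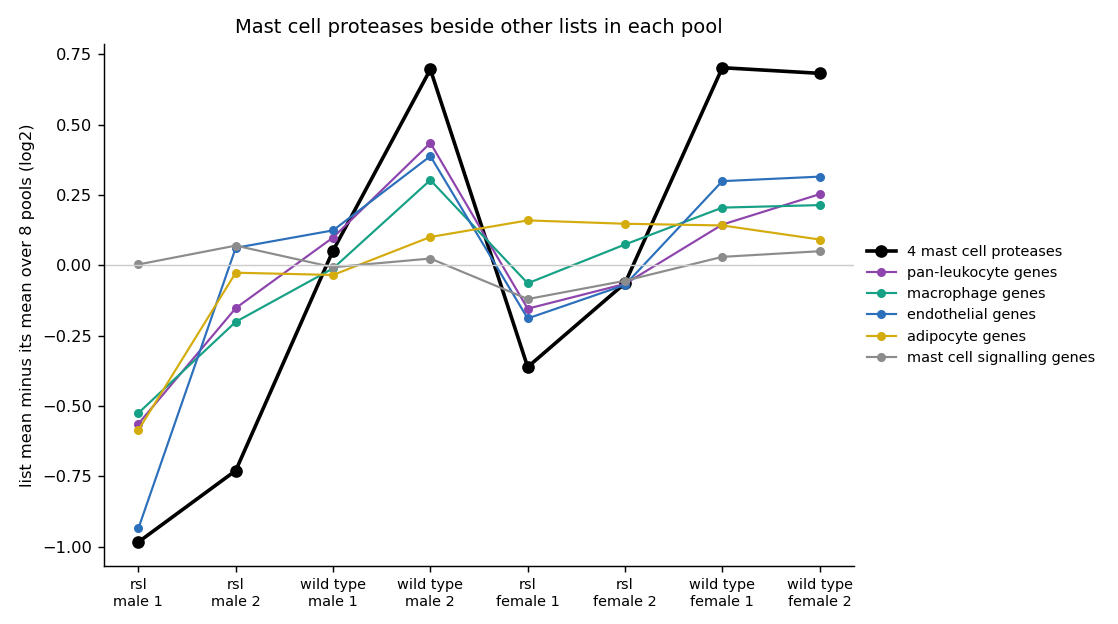
Mean log2 signal of 5 gene lists and mean of the 4 proteases (Cma1, Cpa3, Mcpt4, Tpsb2) in each pool, each minus its own mean over the 8 pools. The proteases run from -0.98 in rsl male 1 to 0.70 in wild type female 1; pan-leukocyte genes keep the same order of strains over a smaller range, and mast cell signalling genes lie near 0.

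The mean profile of the 4 proteases, centred over the 8 pools, stood at -0.98 and -0.73 in rsl males against 0.05 and 0.70 in wild type males, and -0.36 and -0.06 in rsl females against 0.70 and 0.68 in wild type females. Mcpt4 followed the other 3 most closely, with a root mean square difference of 0.23 (log2, over 8 pools), then Cpa3 (0.37), Cma1 (0.40) and Tpsb2 (0.57). Among 20735 other genes, ranked by the same measure against the mean profile, the nearest was Bmp2, a bone morphogenetic protein, at 0.11. It read 5.31 and 5.64 in rsl males against 6.38 and 6.87 in wild type males, and 6.13 and 6.40 in rsl females against 7.11 and 7.20 in wild type females. The 7 that followed were the C-type lectin genes Cd209f (0.13), Cd209g (0.15) and Clec4b1 (0.16), the folate receptor gene Folr2 (0.16), the matrix gene Vit (0.16), Gfra2 (0.17), a receptor of the GDNF family, and the collectin gene Colec11 (0.17). All 8 were above background on every array. They were picked for this profile over the same 8 pools, so their strain differences, from -1.16 for Gfra2 to -0.82 for Colec11, are a description.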

How the data were processed

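RNA of abdominal white adipose tissue was measured in 8 pools, 2 for each of 4 groups of strain and sex. The authors deposited 1 log2 value per probe set and array, made with RMA (robust multi-array average), per the submitters' processing notes; the version is not given in the sources used here. Per the labels, cRNA was made from 400 ng of total RNA with a 3' kit. The other unit, text that annotates each probe set (symbol, accession, title), came from a deposited table of the authors, whose 8 further value columns match no sample and were not used. Of 45141 probe sets, 104 controls were set aside and 45037 tested.

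Gene names were updated through RefSeq's GRCm38.p6 table: 34507 probe sets by accession, 1116 by symbol or synonym and 2744 by the deposited symbol, while 6670 had no gene. Where a gene had several probe sets, the brightest by its mean stood for it. Background on an array was the highest reading among 22 controls without a target (GC counts 3 to 24); a further one, with GC count 25, was dropped once its readings were known. No fold is given where both groups lay below it.

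limma 3.58.1 (R 4.3.3) fitted a linear model to all 8 arrays, with 1 coefficient per group, a constant prior variance, and 4 residual and 3 prior degrees of freedom. Benjamini-Hochberg adjustment ran over all tested probe sets for each contrast, with a threshold of 0.05. The fit was tested on simulated data. Differences between proteases within a pool were compared between strains by exact permutation over all 8 pools, without regard to sex. Named were all 8 genes, from each further mast cell list the genes past the threshold and up to 4 with the smallest p, and the 8 genes with the profile most like that of the proteases. Other genes were named for their role after their values were seen (Gata2, Mitf, Srgn, Ndst2, Gzmb, Ctsg, Mcpt1, Il33, Rsl1 and the single basophil, eosinophil and pan-leukocyte genes), and lists of other cells are otherwise given by counts. The genes and lists were chosen with earlier results of these data known.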

Additional observations from a re-analysis of the deposited data

How the results depend on the processing

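The 8 genes and 6 contrasts were refitted under 19 other settings, giving 884 values: 733 kept their direction and side of the threshold, 35 lost the threshold, 65 gained it and 51 turned in sign. Of those 51, 50 passed on neither side; the other was the strain average of Fcer1a scaled to pan-leukocyte genes (0.0263, adjusted p = 0.881). Leaving out 1 array moved the number of the 8 genes past the threshold between 0 and 5 in the strain average, 0 and 4 in males, 0 and 2 in females, 0 and 2 for sex in wild type, 0 and 4 for sex in rsl, and gave 0 each time for the interaction. The probe sets past the threshold ranged over the same omissions from 40 to 6184, 31 to 6985, 9 to 460, 149 to 3652, 574 to 10015 and 4 to 2860. Without rsl male 1 and wild type male 1 together, chosen after seeing the data, 6 of the 8 genes passed in the average, 5 in males, 4 in females, 3 for sex in rsl, 1 for sex in wild type and 1 for the interaction, with 5128, 3843 and 2009 probe sets for the strain contrasts, 4365 for sex in wild type and 2117 for the interaction.

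Scaling to adipocyte genes, which moved the median of all probe sets by 0.15 in the average and 0.34 in males, gave 2 of the 8 genes in females and 1 for sex in wild type, with 1053 probe sets in males, 1141 for sex in wild type and 262 for the interaction. Scaling to pan-leukocyte genes gave 4 of the 8 in males and 2 each in females and for sex in wild type and rsl, with 35628 (35439 higher), 33379 and 255 probe sets in the strain contrasts, 3574 for sex in rsl and 696 for the interaction. Array weights gave 1 of the 8 in males, 3 in females and 1 for sex in wild type, with 1004, 300 and 529 probe sets in the strain contrasts, 3365 for sex in wild type and 76 for the interaction. An intensity trend gave 41 for the interaction. Averaging the probe sets of a gene left fewer features to test, and 293, 314 and 59 passed in the strain contrasts, 1110 for sex in wild type and 3310 for sex in rsl. Fits on only the arrays compared gave 0 of the 8 and 0 probe sets in males, 4 and 2009 in females, and 1862 probe sets for sex in rsl. Differences that turned in sign were these (log2). Scaled to adipocyte genes, they were the average of Hdc (0.0279), male minus female in rsl for Mcpt4 (0.0308), Tpsb2 (0.0697), Fcer1a (0.307) and Ms4a2 (0.243), and the interaction of Cma1 (0.0335), Cpa3 (0.0578), Mcpt4 (0.328) and Ms4a2 (0.325). Scaled to pan-leukocyte genes, they were the average of Tpsb2 (0.0994) and Hdc (0.344), males for Fcer1a (0.198) and Hdc (0.278), females for Tpsb2 (0.24) and Kit (0.295), male minus female in rsl for Fcer1a (0.0951) and Ms4a2 (0.0315), and the interaction of Mcpt4 (0.268) and Ms4a2 (0.265). In females Kit was 0.0345 after quantile normalization and 0.0142 with its probe sets averaged. Without rsl male 1 and wild type male 1 together, Kit was -0.0711 in the average, -0.128 in males, -0.148 for sex in rsl and -0.113 in the interaction; sex in wild type was 0.0359 for Cma1 and 0.00325 for Mcpt4, and the interaction -0.0572 for Fcer1a and 0.0687 for Ms4a2. Over omissions of 1 array, Kit ran from -0.0225 to 0.228 in the average, -0.0304 to 0.470 in males, -0.123 to 0.0937 in females, -0.148 to 0.352 for sex in rsl and -0.0159 to 0.484 in the interaction. Hdc ran from -0.436 to 0.189 in the average, -0.972 to 0.278 in males, -0.0222 to 0.224 in females and -1.07 to 0.177 in the interaction, and Tpsb2 from -0.198 to 0.0601 in females. Sex in wild type ran from -0.852 to 0.0359 for Cma1 and -0.765 to 0.00325 for Mcpt4, and the interaction from -0.786 to 0.102 for Cma1, -0.432 to 0.337 for Mcpt4, -0.0581 to 0.113 for Fcer1a and -0.156 to 0.0533 for Ms4a2. The causes of these shifts were not tested beyond what each setting does by construction.

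The replicate numbers did not pair the pools: the correlation of same-numbered deviations was 0.346 between the male groups and -0.048 to 0.115 elsewhere. With the replicate block, 4 of the 8 genes passed in the average (Mcpt4 at adjusted p = 0.0492), 1 in females (Cpa3, 0.0379) and 1 for sex in wild type, with 1034 probe sets in males. Precision is limited by 2 pools per group, and signals near background are compressed.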
